A study of Ovis aries with 2 samples.

Results

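COX1, COX2, COX3, ATP6, ATP8 and CYTB are 6 of the 13 protein genes of the mitochondrial genome, and were followed here through sheep blood cells. They were found by their names in the gene lists of both libraries, which hold 26814 gene names, and all 6 were measured in both. The other 7 mitochondrial protein genes (the ND genes, subunits of complex I) completed the denominator. Peripheral blood mononuclear cells from weaned lambs were taken by density gradient and processed fresh, without culture, on droplets with a kit that reads RNA next to the poly(A) tail. Untreated animals were given nothing. A.G.-ES animals carried a suture eluting astragaloside IV and glycyrrhizic acid, embedded at the acupoint ST36 on both sides before bleeding. The labels do not give the number, sex or breed of the animals behind each library, nor the time between embedding and bleeding.

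COX1, COX2 and COX3 are the catalytic core of complex IV, which passes electrons from cytochrome c to oxygen. ATP6 and ATP8 are membrane subunits of complex V, the ATP synthase, and CYTB is the cytochrome b of complex III. All 6 are read from the same strand of the circular mitochondrial DNA as long precursor RNAs, which are cut mostly at tRNAs that lie between the genes and are then given poly(A) tails. In the RefSeq table of assembly ARS-UI_Ramb_v3.0 the order is COX1, COX2, ATP8, ATP6, COX3 and, after the ND genes, CYTB. ATP8 overlaps ATP6, and ATP6 runs into COX3 with no tRNA between them, so this end is cut by another route, for which FASTKD5 is a known factor. COX3 and ATP6 therefore start on the same RNA, which is why their counts were compared within each library.

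After filters 7565 untreated cells with a median of 5121 UMIs (unique molecules counted) and 8737 A.G.-ES cells with a median of 4096 UMIs were kept. Of all UMIs in these cells, 1.37% (95% interval 1.37 to 1.38%) came from the 13 mitochondrial protein genes in untreated and 2.20% (2.20 to 2.21%) in A.G.-ES, 692522 and 864515 UMIs. The libraries shared 61 cell barcodes, 54 of them among kept cells. The 85 Y-linked genes measured held 40355 UMIs in untreated and 751 in A.G.-ES, so any difference between the libraries cannot be told apart from a difference between animals of another sex. With 1 library per group there is no replicate and no test. Intervals are 95% intervals of counting error within these libraries only (Clopper-Pearson for shares, Poisson for levels, exact conditional binomial for ratios), and none covers the spread between animals.

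COX3 was the member that stood apart. It took 1.34% (1.32 to 1.37%) of mitochondrial UMIs in untreated and 10.2% (10.1 to 10.2%) in A.G.-ES, a ratio of 7.56 (7.40 to 7.73). The other 2 core subunits of complex IV took smaller shares in A.G.-ES. COX1 took 13.8% in untreated and 13.3% in A.G.-ES, a ratio of 0.966 (0.958 to 0.974). COX2 took 11.6% and 8.68%, a ratio of 0.75 (0.742 to 0.757). Shares sum to a fixed total, so a larger COX3 share lowers the others. With COX3 left out of the total, COX1 took 14.0% in untreated and 14.8% in A.G.-ES (ratio 1.06, 1.05 to 1.07), and COX2 took 11.7% and 9.66% (ratio 0.823, 0.815 to 0.832). These are sums over all cells, and the mix of cells differed, with B cells at 42.9% of untreated and 20.6% of A.G.-ES cells. Shares without COX3 were not taken for each kind of cell, so the direction for COX1 need not hold in each.

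In complex V, ATP6 took 17.5% of mitochondrial UMIs in untreated and 19.1% in A.G.-ES, a ratio of 1.09 (1.08 to 1.10). ATP8, which lies on the same mature RNA as ATP6, took 0.599% and 0.481%, a ratio of 0.804 (0.770 to 0.839). CYTB of complex III took 14.2% and 12.5%, a ratio of 0.884 (0.877 to 0.892). Together the 6 members took 59.0% of mitochondrial UMIs in untreated and 64.3% in A.G.-ES. Counted at a ratio of at least 1.5 in either direction, 1 of the 6 members, COX3, was past the fold. Of the 7 ND genes, ND1 was higher (1.53% and 3.52%, a ratio of 2.30) and 3 were lower, ND4L at 0.376, ND5 at 0.617 and ND4 at 0.660. These shares sum to a whole, so a larger share of COX3 lowers the others. Without COX3 in the denominator the count past the fold was the same. A share here follows how well each RNA end is captured and counted as well as how much of it there is, so shares of different genes were not ranked as amounts of RNA.

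**Figure D1:**
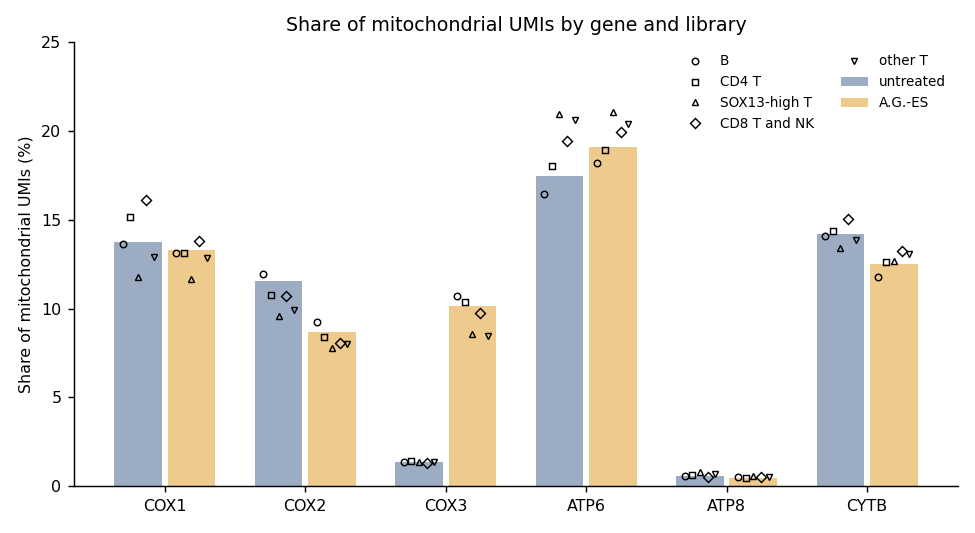
Share of mitochondrial UMIs (percent, vertical axis) taken by each of the 6 genes. Bars give all kept cells of a library and black symbols the 5 cell classes that held at least 200 cells in both; COX3 is at 1.34% in untreated and 10.2% in A.G.-ES, and its symbols do not overlap between libraries.

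Measured in CPM (UMIs of a gene per 1000000 UMIs of all genes in the same cells), every member stood higher in A.G.-ES, where mitochondrial UMIs also made up more of the library. COX3 stood at 184 CPM in untreated and 2239 in A.G.-ES, a ratio of 12.1 (11.9 to 12.4). ATP6 stood at 2401 and 4212 (ratio 1.75), and COX1 at 1891 and 2933 (ratio 1.55). Below the fold were CYTB at 1946 and 2764 (ratio 1.42), ATP8 at 82.2 and 106 (ratio 1.29) and COX2 at 1589 and 1913 (ratio 1.20). Thus 3 of 6 members were higher by at least 1.5-fold, where 13.4% of the 10640 genes with at least 200 UMIs were. None was lower by that fold, where 16.3% of genes were. Of the 7 ND genes, 3 were higher and 1 was lower by that fold, so higher CPM was not particular to the 6 members. The median log2 ratio was 0.57 over the members and -0.08 over all genes.

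The cells were sorted into classes by how many marker genes of each list had a UMI. The B lymphocytes, CD4 T cells, SOX13-high T cells, CD8 T and NK cells and other T cells each held at least 200 cells in both libraries. Erythroid markers were near 0 in both libraries, with a summed level of 0.238 CPM in untreated and 0.178 in A.G.-ES. Platelet markers summed to 18.2 and 21.0 CPM. Monocytes made up 1.82% of untreated and 2.85% of A.G.-ES cells. In that class CD68 had no UMI in either library, and the class rests on other markers such as CYBB and VCAN.

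COX3 took nearly the same low share in every untreated class and a many-fold larger one in every A.G.-ES class. In untreated it ran from 1.19% in cycling cells over 1.31% in monocytes, 1.33% in CD8 T and NK cells, 1.34% in ungated cells, 1.35% in other T cells, 1.36% in B cells and 1.39% in SOX13-high T cells to 1.42% in CD4 T cells. The counting interval of untreated cycling cells ended at 1.27%, below those of B cells, SOX13-high T cells and CD4 T cells. All other pairs of untreated classes had counting intervals that overlapped. The order was different in A.G.-ES: 8.47% in other T cells, 8.57% in SOX13-high T cells, 9.74% in CD8 T and NK cells, 10.1% in ungated cells, 10.4% in CD4 T cells, 10.7% in B cells, 11.8% in monocytes and 13.2% in cycling cells. The 2 lowest classes did not differ beyond counting error (8.28 to 8.65% and 8.34 to 8.81%), and the 43 cycling A.G.-ES cells are few. The ratio of the shares was 6.18 in SOX13-high T cells, 6.27 in other T cells, 7.29 in CD4 T cells, 7.32 in CD8 T and NK cells and 7.89 in B cells.

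COX3 was the 1 member of 6 past the fold in share in each of the 5 classes. COX2 took a smaller share of mitochondrial UMIs in A.G.-ES in all 5, with ratios from 0.753 in CD8 T and NK cells to 0.813 in SOX13-high T cells. CYTB ratios ran from 0.834 in B cells to 0.945 in SOX13-high T cells, and ATP8 ratios from 0.718 in CD4 T cells to 0.951 in CD8 T and NK cells. COX1 ran from 0.856 in CD8 T and NK cells to 0.994 in other T cells. ATP6 ran from 0.987 in other T cells to 1.11 in B cells. Among the 5 untreated classes ATP6 ran from 16.4% in B cells to 20.9% in SOX13-high T cells, and COX1 from 11.8% in SOX13-high T cells to 16.1% in CD8 T and NK cells. In A.G.-ES these 2 genes kept the same lowest and highest class, at 18.2 and 21.1% for ATP6 and at 11.6 and 13.8% for COX1, among the 5 classes.

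In CPM, the count of members higher by at least 1.5-fold varied with the class. It was 1 of 6 in B cells, against 8.31% of genes tested there, and that member was COX3. In CD4 T cells it was 2 of 6 (COX3 and ATP6), against 4.01% of genes. SOX13-high T cells had 5 of 6, all but ATP8, against 3.25% of genes. CD8 T and NK cells had 5 of 6, all but COX2, against 4.28%. Other T cells had 4 of 6, all but COX2 and ATP8, against 5.17%. The ND genes shared in this: of 7, those higher by the fold were 2 in B cells, 3 in CD4 T cells and 3 in other T cells. In SOX13-high T cells and in CD8 T and NK cells they were 4 each. In B cells and in CD4 T cells 1 ND gene was lower by the fold. The median of all genes in these classes lay between -0.19 and -0.12 on the log2 scale. The mitochondrial percent of UMIs moved with these counts: it was 1.31% in untreated and 1.72% in A.G.-ES B cells, but 1.11% and 2.04% in SOX13-high T cells and 1.34% and 2.44% in CD8 T and NK cells.

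Against its neighbour on the same precursor, COX3 had 0.0768 UMIs per ATP6 UMI in untreated (9301 against 121138 UMIs, 0.0752 to 0.0784) and 0.532 in A.G.-ES (87812 against 165211 UMIs, 0.527 to 0.536). The A.G.-ES ratio was 6.92 times the untreated one, a log2 difference of 2.79. In each class the gap had the same direction and a like size, with log2 differences of 2.62 in SOX13-high T cells, 2.67 in other T cells, 2.79 in CD4 T cells and 2.83 in both B cells and CD8 T and NK cells. Monocytes went from 0.0774 in untreated to 0.694 in A.G.-ES, and cycling cells from 0.0696 to 0.751. The lowest A.G.-ES class, SOX13-high T cells at 0.407, lay above the highest untreated class, B cells at 0.0826.

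**Figure D2:**
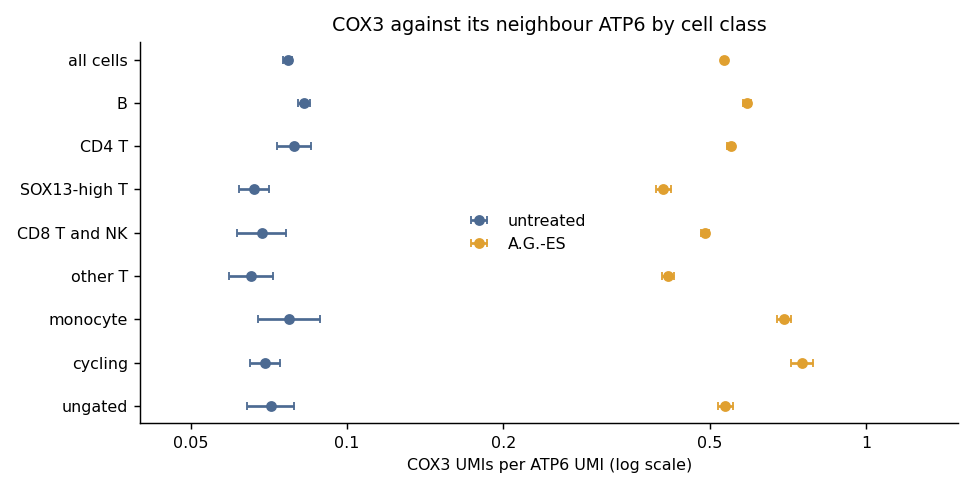
COX3 UMIs per ATP6 UMI (horizontal axis, log scale) in all cells and in each class; points are sums over cells and bars their 95% counting intervals. Every untreated point lies between 0.0654 and 0.0826 and every A.G.-ES point between 0.407 and 0.751.

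The other pairs of members that were counted, without COX3, differed less between the libraries. ATP8 per ATP6 UMI was 0.0342 in untreated and 0.0252 in A.G.-ES. COX2 per COX1 UMI was 0.840 and 0.652. CYTB per ATP6 UMI, a pair that does not lie side by side, was 0.811 and 0.656. ATP6 per UMI of COX2, which lies upstream of ATP8, was 1.51 and 2.20. Pairs of ND genes were not counted in this way, and their shares did not all move together. The ratio of A.G.-ES to untreated share was 1.21 for ND3 and 0.376 for ND4L, and 2.30 for ND1 and 0.915 for ND2. Counted against ND3, the gene that follows it after a tRNA, COX3 again differed widely: 0.231 COX3 UMIs per ND3 UMI in untreated and 1.45 in A.G.-ES. Counted against COX1 it stood at 0.0975 and 0.763. The gap therefore followed COX3 and not the gene it was divided by.

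The gap was present at every depth of reading. With the cells of each library cut into 5 equal groups by UMIs, COX3 per ATP6 lay between 0.0687 and 0.0806 in untreated and between 0.484 and 0.596 in A.G.-ES. Cut by mitochondrial percent, it lay between 0.0731 and 0.0835 in untreated. In A.G.-ES it rose from 0.417 in the group of cells with the lowest mitochondrial percent to 0.613 in the group with the highest. COX3 is itself counted in mitochondrial percent, so part of this rise may have been set by the cut. How much was not tested. Barcodes that the filters removed showed the libraries' own levels: below the UMI or gene minimum COX3 took 1.26% of mitochondrial UMIs in untreated (147 barcodes) and 9.70% in A.G.-ES (171 barcodes). Among likely doublets it took 1.27% and 10.0%.

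Cell by cell, COX3 was the most unevenly spread member in A.G.-ES. To compare cells at equal depth, 50 mitochondrial UMIs were drawn from each of the 4795 untreated and 7461 A.G.-ES cells that had as many (2770 and 1276 cells had fewer). In the draw 48.3% of untreated and 89.5% of A.G.-ES cells had a COX3 UMI. Undrawn, 59.7% and 91.5% of all kept cells had one. Every cell class carries mitochondria, so no class gave a level for free RNA. In the draw the middle 50 percent of A.G.-ES cells spanned COX3 shares from 4 to 14%. The variance over cells was taken from all mitochondrial UMIs of these cells, undrawn, and so was not evened for depth. For COX3 it was 3.67 times that of a binomial draw around the mean in A.G.-ES and 1.13 times in untreated. For the other members this ratio ran from 1.09 (ATP8) to 1.78 (COX1) in untreated and from 1.20 (ATP8) to 1.59 (ATP6) in A.G.-ES.

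The A.G.-ES cells fell into 2 ranges. Per cell, COX3 was taken as a percent of COX3 plus ATP6 UMIs in cells with at least 15 ATP6 UMIs, 3221 of untreated and 5267 of A.G.-ES. Of the untreated cells 98.0% (3158 cells) lay under 20% and 0.373% (12 cells) at 25% or more, with a median of 5.88%. Of the A.G.-ES cells 30.8% (29.5 to 32.0%, 1621 cells) lay under 20% and 65.6% (64.3 to 66.9%, 3457 cells) at 25% or more. Between these bounds, which were set after the distribution had been seen, were 189 A.G.-ES cells, or 3.59%. The bounds cut a continuous measure, so the 2 sides are ranges of cells and not cell types.

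**Figure D3:**
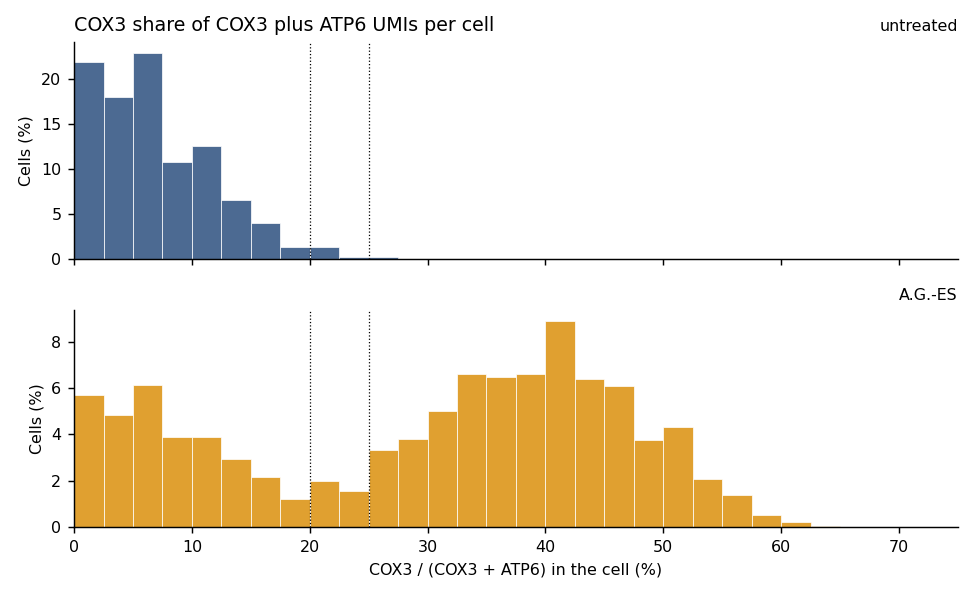
Percent of cells (vertical axis) by COX3 as a percent of COX3 plus ATP6 UMIs in the cell (horizontal axis, bins of 2.5 points), in cells with at least 15 ATP6 UMIs. Dotted lines mark 20% and 25%; untreated has 1 mode under 20%, and A.G.-ES has 1 mode there with 30.8% of its cells and another around 40%.

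Summed over cells, the low range of A.G.-ES had 0.0845 COX3 UMIs per ATP6 UMI and the high range 0.695, where untreated cells under the same bound had 0.0705. These 3 values describe the split, since it was made on them. The low range was present in every class but not equally. It held 27.1% of the A.G.-ES B cells, 28.0% of CD4 T cells, 29.7% of CD8 T and NK cells, 43.6% of SOX13-high T cells and 47.8% of other T cells. Monocytes had 10 of 219 cells there, 4.57% (2.21 to 8.24%), and cycling cells 2 of 41. The order of the classes by COX3 share in A.G.-ES, given above, was that of the percent of their cells in the high range, except that ungated cells and CD8 T and NK cells changed places, as did monocytes and cycling cells. Within the high range the classes lay closer together, from 0.632 COX3 UMIs per ATP6 UMI in SOX13-high T cells to 0.775 in cycling cells. The range is bounded on these same 2 genes, which by itself draws the classes together.

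The ranges also differed in ND1, which the split did not use. As a share of mitochondrial UMIs other than COX3, ND1 took 1.45% in untreated cells under 20%, 1.20% in the A.G.-ES low range and 4.83% in the high range, 4.01 times the low range (3.82 to 4.20). The ratio of high to low ran from 3.50 in CD8 T and NK cells to 4.64 in SOX13-high T cells. ND1 encodes a core subunit of complex I and, in the order of the table, lies far from COX3, upstream of COX1.

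The other members differed less between the ranges. COX1 took 14.0% in the low and 14.8% in the high range (ratio 1.06), and COX2 took 9.0% and 9.99% (ratio 1.11). By class the COX1 ratio ran from 0.980 in SOX13-high T cells to 1.08 in CD4 T cells. Only the CD4 T interval, 1.05 to 1.11, left out 1. The COX2 ratio ran from 0.943 in SOX13-high T cells to 1.11 in CD8 T and NK cells, and the intervals in B cells and SOX13-high T cells spanned 1. CYTB took 15.1% and 13.4% (ratio 0.885), lower in the high range in each of the 5 classes. ATP8 took 0.645% and 0.467% (ratio 0.724). By class its ratio ran from 0.620 in CD8 T and NK cells to 0.914 in SOX13-high T cells, and the last interval, 0.703 to 1.19, spans 1.

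The A.G.-ES low range was not the same as untreated cells in every gene. Over all cells COX1 took 14.0% in both, but by class its ratio of A.G.-ES low range to untreated ran from 0.888 (0.852 to 0.926) in CD4 T cells to 1.10 (1.04 to 1.18) in SOX13-high T cells, and each of the 5 intervals leaves out 1. CYTB took 15.1 and 14.4%. ATP6, which was used in the split, took 24.0% and 17.9% (ratio 1.34, 1.33 to 1.36), with class ratios from 1.03 in other T cells to 1.30 in B cells. COX2 took 9.0% there and 12.1% in untreated cells under the bound, a ratio of 0.746 (0.732 to 0.760). By class the COX2 ratio ran from 0.728 in CD8 T and NK cells to 0.918 (0.855 to 0.986) in SOX13-high T cells, and only CD8 T and NK cells lay below the ratio over all cells. ND4L took 0.775% and 1.74% (ratio 0.447), and ND4 10.2% and 15.9% (ratio 0.643). The lower COX2 share was thus seen in both ranges of A.G.-ES, while the ND1 share was nearer to the untreated one in the low range than in the high range. The same holds for COX3, but the split was made on COX3, so this was fixed in advance.

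**Figure D4:**
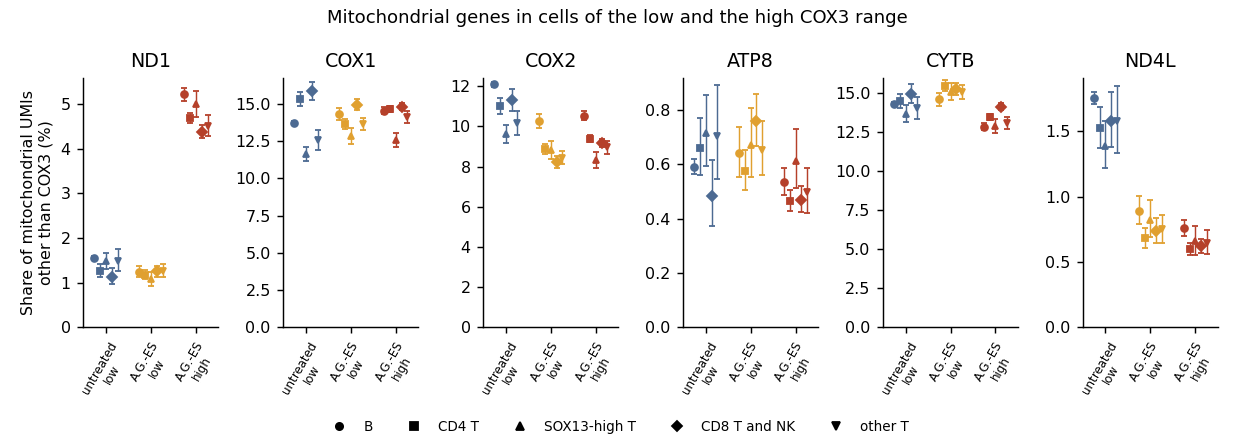
Share of mitochondrial UMIs other than COX3 (percent, vertical axes from 0) taken by 6 genes in untreated cells of the low range and A.G.-ES cells of the low and high range. Symbols are the 5 classes and bars 95% counting intervals; ND1 is at 1.20% over all cells of the A.G.-ES low range and 4.83% over all cells of the high range, while COX2 and ND4L are lower in both A.G.-ES ranges than in untreated.

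Depth and mitochondrial percent were set beside the split. The median cell had 4743 UMIs in the low and 4934 in the high range, and mitochondrial genes gave 1.98% and 2.56% of UMIs. COX3 is among these mitochondrial genes, so part of the difference in percent was fixed by the split. Y-linked genes summed to 14.5 CPM (12 to 17.4) in the low and 20.1 (18.1 to 22.2) in the high range, against 790 in untreated cells under the bound. The part of these measures in the split was not tested.

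Some nuclear genes followed the same split of the A.G.-ES cells. Of 3882 nuclear genes with at least 50 UMIs over both ranges in each of the 5 classes, 12 (0.309%) were at least 2-fold higher in the high range in all 5 and 7 (0.18%) at least 2-fold lower. Most carry only an identifier, and those named next were picked after their values had been seen. HINT1, a purine nucleotide phosphoramidase, was lower in the high range, with log2 ratios from -3.67 to -3.09. In CD4 T cells it had 107 CPM in the low range, 8.64 in the high range and 52.0 in all untreated CD4 T cells. FTL, the light chain of the iron store ferritin, was higher, with log2 ratios from 2.40 to 2.87. In B cells it had 34.2 CPM in the low range, 252 in the high range and 37.2 in all untreated B cells. In SOX13-high T cells the FTL values were 28.8, 193 and 68.7 CPM. Other genes of the split had untreated levels near or above the high range. In B cells LOC114113983 had 98.0 CPM in the low range, 1367 in the high range and 1227 in untreated, and LOC101121371 had 131, 1427 and 2837. The untreated cells therefore did not sit with the low range in all of these genes.

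TPT1, an abundant protein of translation and growth, was higher with log2 ratios from 1.16 to 1.56. ARSB, a lysosomal sulfatase, ran from 1.19 to 2.35, and TOX, a transcription factor of T cells, from 1.02 to 1.66. HINT1, FTL and TPT1 have related copies in mammalian genomes. The way reads that match several copies were counted is not given in the sources used here, so these values are uncertain.

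The split by COX3 was then looked for in cells that had taken no part in it. From the nuclear genes above, those at least 4-fold apart in all 5 classes were taken, 4 on the low side and 7 on the high side, HINT1 and FTL among them. The 3470 A.G.-ES cells with under 15 ATP6 UMIs were sorted by these nuclear genes alone; they come from the same library as the cells that gave the genes. In 941 of them the low-side genes had at least 80% of at least 5 such UMIs, in 1702 at most 20%, and 202 lay between. The other 625 had too few.

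In the 941 low-side cells COX3 had 0.123 UMIs per ATP6 UMI (0.115 to 0.131), and in the 1702 high-side cells 0.869 (0.850 to 0.889). ND1 took 1.20% and 4.73% of mitochondrial UMIs in these cells. The 202 A.G.-ES cells between stood near the high side, at 0.804 COX3 UMIs per ATP6 UMI and 4.57% ND1. The 625 with too few UMIs of the sorting genes stood at 0.705 and 4.13%. All of these cells were held to few ATP6 UMIs, which raises any ratio over ATP6. Within each of the 5 classes the order was the same, with low-side values from 0.0979 to 0.136 and high-side values from 0.764 to 0.904. Of the untreated cells of the same kind, 3850 of 4344 lay between the bounds. COX3 per ATP6 was 0.0802 in the 59 low-side, 0.0854 in the middle and 0.0732 in the 136 high-side untreated cells. The sorting genes were chosen on the A.G.-ES split, and untreated cells held genes of both sides. In untreated CD4 T cells LOC132658253 (low side) had 2324 CPM and LOC101121371 (high side) 2130. A middle place was thus largely set in advance, and this sort cannot show whether untreated cells divide. The labels do not say how many animals gave the A.G.-ES library.

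**Figure D5:**
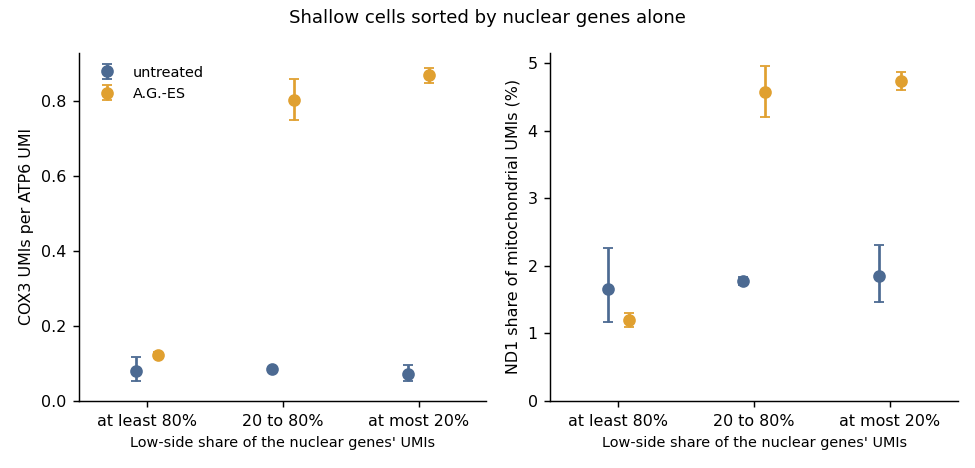
COX3 UMIs per ATP6 UMI (left) and ND1 share of mitochondrial UMIs (right, percent) in cells with under 15 ATP6 UMIs, grouped by the percent of the sorting nuclear genes' UMIs that came from the low-side genes. Points are sums over cells with 95% counting intervals; A.G.-ES cells stand at 0.123 in the first group and 0.869 in the last, while untreated cells lie between 0.0732 and 0.0854.

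Of 18 listed nuclear genes of complex V, 17 were analysed here, and none was higher and 2 were lower by 1.5-fold in A.G.-ES, where 16.3% of all genes were lower. Their median log2 ratio was -0.34, against -0.08 for all genes. Both lower genes encode the membrane c subunit that ATP6 touches, ATP5MC1 at 65.1 and 34.1 CPM and ATP5MC3 at 190 and 116. ATP5MC2, which encodes the same subunit and had more UMIs than either, had 348 and 258 CPM and did not pass the fold. ATP5PF, a stalk subunit, had 222 and 153 CPM and did not pass the fold. The 3 with most UMIs were ATP5F1E (605 and 447 CPM), ATP5MG (494 and 487) and ATP5ME (455 and 530). By class the list's median lay between -0.40 in B cells and 0.12 in SOX13-high T cells.

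Of the nuclear subunits of complex IV listed, 2 of 12 were analysed here, COX5A at 157 and 111 CPM and NDUFA4 at 237 and 179. For complex III it was 1 of 9, UQCRH at 421 and 469, and for complex IV assembly 1 of 16, COX15 at 7.10 and 5.81. Over all cells none of these 4 passed the fold. In B cells COX5A did, at 162 and 103 CPM (ratio 0.636, 0.595 to 0.680), where 14.8% of the genes tested in B cells were lower by it.

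Of 28 listed genes of mitochondrial transcription and RNA processing, 24 had at least 200 UMIs over both libraries, of which 1 was higher and 4 were lower by 1.5-fold, with a median log2 ratio of -0.29. Of all genes, 13.4% were higher and 16.3% lower, so the 4 lower of 24 were near the background share and the 1 higher below it. The 1 higher gene was FASTKD5, the factor named above, from 128 UMIs (2.54 CPM) in untreated and 155 (3.95 CPM) in A.G.-ES, a ratio of 1.56 (1.22 to 1.98), an interval that spans the fold of 1.5. In B cells FASTKD5 had 57 UMIs (1.93 CPM) in untreated and 40 (3.87 CPM) in A.G.-ES, a ratio of 2.01 (1.31 to 3.06). These counts are under the minimum of 200, so it was not counted there. In none of the 5 classes was a tested gene of the list higher by the fold. LRPPRC, which stabilises mitochondrial messenger RNAs, was lower, at 85.5 and 54.1 CPM. So were MTERF3, a regulator of mitochondrial transcription (11.1 and 6.22), HSD17B10, a subunit of the enzyme that cuts tRNA ends (41.9 and 26.6), and TFB1M, which modifies ribosomal RNA (3.55 and 2.29). SLIRP, the partner of LRPPRC, had 81.8 and 73.9 CPM, and PNPT1, a mitochondrial RNA-degrading enzyme, 67.2 and 56.8.

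Likeness of pattern was described by Pearson's r of log2 levels over the 10 combinations of library and class, which share 2 libraries and their depths, so a gene that differs between the libraries alone scores high. Among mitochondrial genes COX3 was most like ND1 (r = 0.99) and then ND3 (0.95), and least like ND4L (-0.87). Of 8325 nuclear genes with at least 500 UMIs the 3 most like COX3 carry only identifiers (each 0.99), and the first with a symbol were FKBP8 (0.97), TUBA4A (0.97) and LUZP2 (0.97). Likeness over these sums need not hold between cells. Among those 3, LOC106991226 was higher in the high COX3 range of A.G.-ES (CD4 T cells, 52.3 CPM low and 558 high). LOC101103232 was lower there (2438 and 840), each in all 5 classes. ATP6 was most like ND3 (0.97) and ND2 (0.97), and among nuclear genes with a symbol most like GIMAP8 (0.97) and PRLH (0.95).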

How the data were processed

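Each library was deposited by the authors as a matrix of whole-number UMI counts per gene and cell, made with a 3′ droplet kit per the labels' protocols. Which aligner, genome build and counting tool were used, and how reads matching several places were treated, is not given in the sources used here. The deposited counts were used unchanged. Of 26814 gene names, 26761 matched the RefSeq table of ARS-UI_Ramb_v3.0, which was used for names, gene order and Y linkage only. No mitochondrial rRNA gene was counted here. The 6 genes, the gene lists and the comparisons were chosen with earlier results of these data known.

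Barcodes with at least 500 UMIs and 200 genes and at most 15% mitochondrial UMIs were kept (158 of 8246 untreated and 186 of 9638 A.G.-ES barcodes removed). The highest Scrublet scores, 0.8% per 1000 cells (523 and 715 cells), were then taken out as likely doublets; Scrublet's own threshold marked 217 and 216. Cells were classed by the number of marker genes with a UMI, a rule set after seeing the data: at least 4 for B cells, 1 for CD4 T, 2 for SOX13-high T, 3 for CD8 T and NK, 2 T cell markers for other T, 4 for monocytes and 3 for cycling cells, with limits on the markers of other classes. UMIs were summed per library and class. A gene was counted past the fold at a ratio of at least 1.5 or its inverse, and in CPM (UMIs per 1000000 UMIs) among genes with at least 200 UMIs. From each nuclear list the text names the 3 genes with most UMIs and up to 3 with the ratio farthest from 1, with FASTKD5, LRPPRC and TFB1M added. The bounds of the COX3 ranges, the nuclear genes used to sort cells and that sort were also chosen after seeing the data. Calculations used scanpy 1.11.5, numpy 2.4.6, scipy 1.17.1 and pandas 2.3.3, and edgeR 4.0.16 for TMM factors only. Depth per cell limits single-cell values; intervals cover counting error only. Alternatives were other filters, cell weights, thinning, gates, folds and scalings.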

Additional observations from a re-analysis of the deposited data

How the results depend on the processing

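The log2 gap between the libraries in COX3 per ATP6 UMI, 2.79, kept its direction under all 7 alternatives run on it. It moved outside its counting interval with each cell given the same weight (2.71) and with cells thinned to 1500 UMIs (2.91). COX3 stayed the 1 member of 6 past the fold in share under each of the 9 alternatives run over all cells. With 1 more marker asked for, the class gaps lay between 2.70 and 2.88, and in CD4 T cells ATP8 passed the fold as well (ratio 0.629). The gap in SOX13-high T cells moved outside its counting interval, from 2.62 to 2.875, with 357 untreated and 107 A.G.-ES cells left. It was then no longer the smallest of the classes, and the COX3 share ratio there went from 6.18 to 7.36. The count of members higher in CPM was 3. It was 1 at a fold of 2 and 4 with ratios centred on the median of all genes, where CYTB passed (log2 ratio 0.59). The direction of every member was the same under the 4 scaling and fold settings run. The share of all genes higher by 1.5-fold was 21.0% with no count minimum and 9.75% with at least 1000 UMIs. The difference in mitochondrial percent of UMIs, 0.831 points, was 0.752 with a 5% cap, 0.770 with at least 2000 UMIs per cell, 1.03 with cells weighted alike, 0.784 after thinning and 0.868 with the classes weighted alike. The percent of A.G.-ES cells in the low COX3 range, 30.8%, was 23.7% with at least 30 ATP6 UMIs, 27.0% with the range ended at 15% and 34.4% with it ended at 25% (alternatives chosen after seeing the data). The cause of these moves was not tested. Adding mitochondrial rRNA genes to the denominator could not be run, since none was counted here. No paired analysis was possible because each group has 1 library. With 1 library per group, none of the differences can be told apart from a difference between animals or between library preparations.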
